A study of Mus musculus with 6 samples.

Results

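A set of 7 mouse genes of zinc storage and zinc transport was followed in RNA sequencing of liver sinusoidal endothelial cells (LSECs): the metallothioneins Mt1 and Mt2, the metal-responsive transcription factor Mtf1, the zinc exporter Slc30a1 (ZnT1), and the zinc importers Slc39a8 (ZIP8), Slc39a10 (ZIP10) and Slc39a14 (ZIP14). They were taken from the deposited gene table by symbol and are 7 of its 60832 genes. The cells came from livers of male BALB/c-Nu mice, 4 to 6 weeks of age, that carried colorectal cancer liver metastasis (CRCLM) xenografts grown from HCT116, a human colorectal cancer cell line injected into the left main lobe. In the sensitive group (3 libraries) the labels call the tumours bevacizumab-sensitive. The study's methods give IgG to a vehicle group, and the sources do not say that the sensitive libraries came from those mice. In the resistant group (3 libraries) the tumours were bevacizumab-resistant after intraperitoneal bevacizumab, an antibody against VEGF-A, at 10 mg/kg 2 times a week for 7 weeks by the study's methods, or 42 days by its results. Both groups share the host strain, which lacks mature T cells, the HCT116 tumour, isolation with beads against CD146, and 24 h of culture in DMEM with 10% FBS. Resistance arose under the antibody, so the state of the tumour and the treatment cannot be told apart. The labels do not say that each library came from a separate mouse, so every p-value measures the spread between these libraries, which may be technical.

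Metallothioneins are small cysteine-rich proteins that hold zinc and copper through their thiol groups and buffer the free metal inside the cell. When zinc in the cell increases, MTF1, a zinc-finger protein, binds metal response elements in DNA and activates the genes of the metallothioneins and of ZnT1, the exporter in the plasma membrane. ZIP proteins carry zinc the other way, into the cytoplasm. In liver, ZIP14 is known for zinc uptake during inflammation and for uptake of iron and manganese, ZIP8 carries manganese and cadmium as well as zinc, and MT1 and MT2 are induced by zinc, glucocorticoids and interleukin-6.

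The coding sequences of Mt1 and Mt2 are shown because their likeness bears on which gene a read can be assigned to. Each has 186 bases in 3 exons and encodes 61 residues, of which 20, or 32.8%, are cysteines, and all the cysteine codons stand at the same places in both. Cysteine codons are in capitals, and the sequences run 5′ to 3′ from the start codon to the stop codon of the principal GENCODE M21 transcripts (GRCm38, plus strand).
Mt1, between 94179311 and 94180193 of chromosome 8: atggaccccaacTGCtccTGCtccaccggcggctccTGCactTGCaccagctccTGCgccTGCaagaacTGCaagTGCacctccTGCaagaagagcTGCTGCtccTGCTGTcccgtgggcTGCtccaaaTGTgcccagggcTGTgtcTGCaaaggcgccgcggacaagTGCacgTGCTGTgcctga
Mt2, between 94172848 and 94173427 of chromosome 8: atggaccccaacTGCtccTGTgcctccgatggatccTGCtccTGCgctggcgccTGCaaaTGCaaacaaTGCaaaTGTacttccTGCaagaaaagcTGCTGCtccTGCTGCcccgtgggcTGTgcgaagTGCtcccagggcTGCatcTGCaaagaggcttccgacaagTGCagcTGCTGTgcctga
The sequences shared 148 of 186 bases (79.6%), and the longest run without a difference was 20 bases. A sequencing read longer than that run within the coding sequence therefore holds at least 1 base that differs between Mt1 and Mt2.

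The regions before both starts are shown for the core of the metal response element, the site that MTF1 binds. The letters TGCACNC and TGCGCNC were searched on both strands from 250 bases before to 50 bases after each start in RefSeq (GRCm38.p6), and matches are in capitals in the 250 bases before the start.
Mt1, chr8:94178839-94179088, plus strand: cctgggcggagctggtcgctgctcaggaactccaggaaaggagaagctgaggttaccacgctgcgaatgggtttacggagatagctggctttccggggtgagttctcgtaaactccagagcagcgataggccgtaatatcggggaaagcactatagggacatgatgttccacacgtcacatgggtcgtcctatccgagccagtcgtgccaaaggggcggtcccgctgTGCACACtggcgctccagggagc
Mt2, chr8:94172368-94172617, plus strand: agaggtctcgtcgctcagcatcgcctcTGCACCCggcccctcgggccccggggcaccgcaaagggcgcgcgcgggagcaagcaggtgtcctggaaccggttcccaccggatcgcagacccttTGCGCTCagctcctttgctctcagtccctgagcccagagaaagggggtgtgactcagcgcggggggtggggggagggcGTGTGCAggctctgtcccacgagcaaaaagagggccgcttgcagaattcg
Of the 7 genes, 6 had an entry, and Slc39a14 had none. In the whole window Mt1 held 3 matches, 1 of them before the start, and Mt2 held 4, with 3 before the start. Both windows end before the coding sequence, which begins at 94179311 in Mt1 and 94172848 in Mt2. The bases between were not searched, so these counts do not give all sites near either gene. The RefSeq start of Mt2 also lies before its GENCODE start, 94172664, which is used in the rest of the text. The window of Slc30a1 held 2 matches. Slc39a8 has 2 windows, of which 1 held 1 match, and no match of these letters lay in the windows of Mtf1 or Slc39a10. No matches overlapped each other. Among all 32851 promoters of the same length, 25.7% held at least 1 match, 7.11% at least 2, 1.97% at least 3 and 0.517% at least 4.

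The libraries held 17599326 to 20726684 counts, so that 3 counts, the upper limit that a count of 0 allows, correspond to 0.145 to 0.170 CPM (the usual scaling of counts to the library total). Sensitive library 2 stood apart: its correlations of log2 CPM with the other libraries, across the tested genes, were 0.860 to 0.901, against 0.954 to 0.974 for all other pairs, and the fold change of each of the 7 genes is given with and without it. By the study's methods the isolated LSECs were CD146-positive with high purity in flow cytometry, a measure of protein on the cells. Here the labelled cell type was set against the RNA of its markers. Summed over 9 LSEC markers the level was 139 to 379 CPM in the sensitive and 64.5 to 455 CPM in the resistant libraries. Summed over 12 macrophage markers it was 23402 to 36399 CPM and 25998 to 29614 CPM, and no marker of either list was at 0 counts in all libraries. The values below are therefore those of a bead-isolated preparation in which macrophage transcripts were far more abundant than LSEC transcripts, and which of its cells held the zinc transcripts was not tested. In such bulk samples, fewer cells of a type and less RNA per cell cannot be told apart.

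By its counts, Mt1 was the most abundant of the 7 genes by far. The gene (ENSMUSG00000031765) lies on chromosome 8, 94179082 to 94180327, plus strand. Its level was 314, 653 and 270.4 CPM in sensitive libraries 1, 2 and 3 and 359, 299 and 282 CPM in resistant libraries 1, 2 and 3, from 5428 to 11492 counts. Sensitive library 2 was the highest, the other 5 lay close together, and the groups overlapped. By rank Mt1 was between the 174th and the 554th most counted gene of a library. The mean level was 412 ± 209.5 CPM (SD, n = 3) in the sensitive and 314 ± 40.5 CPM (SD, n = 3) in the resistant group. The fitted log2 fold change, resistant over sensitive, was -0.51 (SE 0.41, 95% interval -1.48 to 0.45), with an adjusted p of 0.940 in edgeR's quasi-likelihood test. Without sensitive library 2 the direction turned and the value was 0.10.

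Mt2 was counted at a small fraction of the level of Mt1. It lies upstream of Mt1 on the same strand (ENSMUSG00000031762, chromosome 8, 94172664 to 94173568). The counts were 38, 99 and 20 in the sensitive and 67, 30 and 34 in the resistant libraries, or 1.94, 5.63 and 0.973 CPM and 3.23, 1.52 and 1.77 CPM. As with Mt1, sensitive library 2 was the highest and sensitive library 3 the lowest, and the groups overlapped. The log2 fold change was -0.53 (SE 0.74, 95% interval -2.28 to 1.21; edgeR adjusted p 0.940), and without sensitive library 2 it turned to 0.58.

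**Figure D1:**
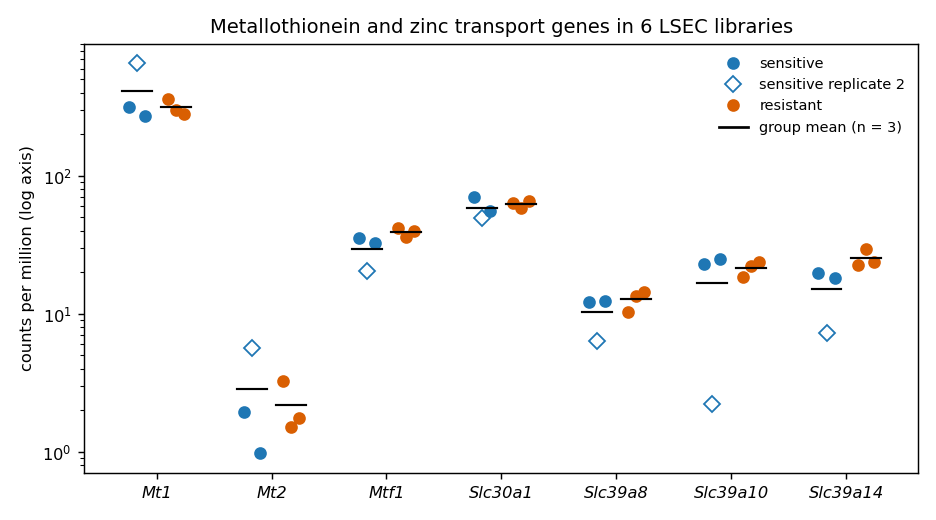
CPM (log axis) of each of the 7 genes in the 3 sensitive and the 3 resistant libraries, with black lines for the group means and an open diamond for sensitive library 2. Sensitive library 2 is the highest point for Mt1 (653 CPM) and Mt2 (5.63 CPM) and the lowest for the 5 other genes.

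The ratio of Mt1 to Mt2 counts was between 111 and 278 in every library. The annotation bears on how this can be read. Mt2 has 588 exonic bases, and 432 of them (73.5%) lie under the single exon of Gm45774, an annotated antisense gene on the minus strand (chromosome 8, 94170748 to 94173412). Only the last 156 exonic bases of Mt2, 94173413 to 94173568, are free of it. Gm45774 itself, named after its values were seen, held 1, 0 and 9 counts in the sensitive and 0, 8 and 4 in the resistant libraries. The sources used here give neither the strand setting of the counting nor its treatment of reads that fall on both genes. Across the protein-coding genes of the table, the 415 with more than 70% of their exonic bases under another gene had a median level of 0 FPKM (fragments per kilobase of exon, scaled to library size), and 54.9% of them had no count in any library. For the 15342 with no shared bases the median was 0.278 FPKM and 26.2% had no count. The classes between did not lie between these values: the median was 2.81 FPKM over 5439 genes with a share of up to 30% and 0.514 FPKM over 681 genes with 30 to 70%, and 7.23% and 14.1% had no count. Mt1 shares no exonic base with another gene.

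**Figure D2:**
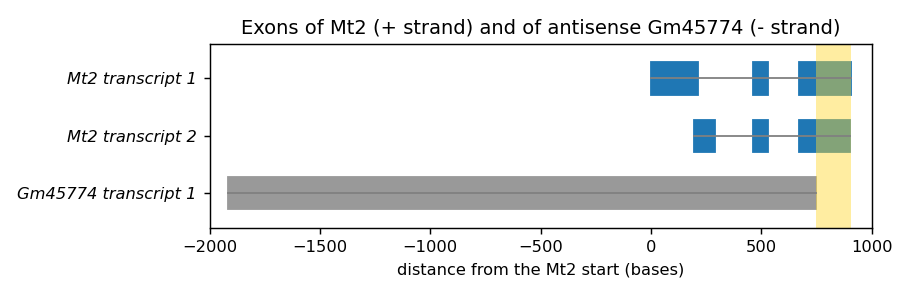
Map of the exons (boxes) of the 2 transcripts of Mt2 and of the antisense gene Gm45774, drawn to scale as distance in bases from the annotated start of Mt2, with the stretch free of the antisense gene shaded in yellow. The antisense exon covers 432 of the 588 exonic bases of Mt2 and leaves the last 156.

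Set per length, the counted level of Mt1 still exceeded that of Mt2 in all 6 libraries, and the size depended on the length used. The ratio of the deposited FPKM values was 52.5 to 131. These divide Mt1 by 1246 bases, its whole locus with retained introns, and Mt2 by 588 bases. Divided by the principal transcripts of 549 and 511 bases, the ratio was 103 to 259. If Mt2 reads could be counted only in its 156 free bases, the ratio per base was 31.6 to 79.0, with Mt1 divided by 549 bases. The reads were paired-end by the study's methods, and the number lost where a fragment reaches out of these free bases is not known. None of these ratios therefore limits how abundant Mt2 RNA was.

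**Figure D3:**
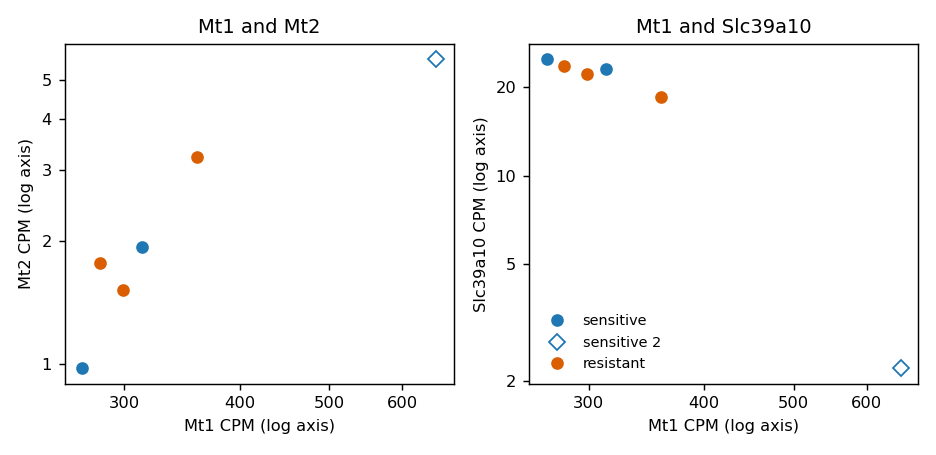
CPM of Mt2 and of Slc39a10 against CPM of Mt1 (log axes) in the 6 libraries, coloured by group, with an open diamond for sensitive library 2. On the whole Mt2 was higher and Slc39a10 lower where Mt1 was higher, with sensitive library 2 at the far end of both (653 CPM of Mt1, 5.63 CPM of Mt2, 2.22 CPM of Slc39a10).

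Mtf1, the transcription factor of the pathway, was somewhat higher in the resistant libraries without passing the test. The gene (ENSMUSG00000028890, chromosome 4, 124802104 to 124849800, plus strand) was at 35.2, 20.4 and 32.8 CPM in the sensitive and at 41.8, 36.3 and 39.8 CPM in the resistant libraries. Every resistant library was above every sensitive library, and sensitive library 2 was the lowest. The mean level was 29.5 ± 7.94 CPM (SD, n = 3) against 39.3 ± 2.79 CPM (SD, n = 3). The log2 fold change was 0.37 (SE 0.22, 95% interval -0.14 to 0.87; edgeR adjusted p 0.940) and 0.21 without sensitive library 2. An exact two-sided permutation test over the 6 libraries gave p = 0.1, the smallest value that 3 against 3 allows. Groups that do not overlap always give this value, so it is no separate check. Of the exonic bases of Mtf1, 8.09% are shared with the neighbouring gene 1110065P20Rik.

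Slc30a1, the exporter and a known target of MTF1, was the steadiest of the 7 genes with all libraries in the fit. At chromosome 1, 191906767 to 191913247, plus strand (ENSMUSG00000037434), it was counted at 70.7, 49.8 and 55.4 CPM in the sensitive and 63.2, 58.4 and 65.7 CPM in the resistant libraries. The resistant values lay within the range of the sensitive ones. Its log2 fold change was 0.03 (SE 0.18, 95% interval -0.39 to 0.46; edgeR adjusted p 0.977), the narrowest interval among the 7 genes, and it was -0.0079 without sensitive library 2 and -0.0038 without sensitive library 3. Without sensitive library 2 the interval of Mtf1 was narrower than that of Slc30a1 (SE 0.11 against 0.13). An antisense gene, 1700034H15Rik, shares 8.92% of the exonic bases of Slc30a1.

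Slc39a14, an importer of zinc, iron and manganese, had the largest difference of the 7 genes with all libraries in the fit, while without sensitive library 2 that of Mt2 (0.58) was larger. Its levels (ENSMUSG00000022094, chromosome 14, 70303469 to 70351425, minus strand) were 19.9, 7.22 and 18.2 CPM in the sensitive and 22.6, 29.4 and 23.7 CPM in the resistant libraries. All resistant libraries were above all sensitive ones, and sensitive library 2 was the lowest. The mean was 15.1 ± 6.89 CPM (SD, n = 3) against 25.2 ± 3.68 CPM (SD, n = 3). The log2 fold change was 0.72 (SE 0.36, 95% interval -0.12 to 1.55; edgeR adjusted p 0.940, exact permutation p = 0.1). Without sensitive library 2 it was 0.41. Slc39a14 is also expressed by hepatocytes. Of 10 hepatocyte markers all 9 tested had a positive log2 fold change. The summed level was 245, 321 and 327 CPM in sensitive libraries 1, 2 and 3 and 340.3, 516 and 368 CPM in resistant libraries 1, 2 and 3. Its order matched that of Slc39a14 within the resistant group, with library 2 the highest, but not within the sensitive group. There library 1 had the lowest sum and the highest Slc39a14. Among the 10 markers Trf held the most counts in every library (2937 to 5948), followed by Alb (370 to 1720). The log2 fold change of Trf was 0.23, beside a median of 0.998 over the tested markers. None of the 10 was at 0 counts in all libraries. The part of hepatocyte RNA in the level of Slc39a14 was not tested.

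Slc39a8, which carries zinc, manganese and cadmium, was at 12.3, 6.36 and 12.5 CPM in the sensitive and 10.4, 13.4 and 14.5 CPM in the resistant libraries (ENSMUSG00000053897, chromosome 3, 135825279 to 135888572, plus strand). Apart from sensitive library 2 the values of both groups lay in the same range. The log2 fold change was 0.26 (SE 0.31, 95% interval -0.47 to 1.00; edgeR adjusted p 0.940) and 0.05 without that library.

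Slc39a10, an importer of the plasma membrane, had the widest ratio of its highest to its lowest library. The gene (ENSMUSG00000025986, chromosome 1, 46807544 to 46892852, minus strand) was at 23.1, 2.22 and 24.9 CPM in the sensitive and at 18.6, 22.3 and 23.6 CPM in the resistant libraries. Sensitive library 2 held 39 counts of it where the others held 385 to 511. With it the log2 fold change was 0.36 (SE 0.70, 95% interval -1.29 to 2.01; edgeR adjusted p 0.943), and without it -0.15.

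Ordered by mean FPKM over the 6 libraries, which sets genes side by side per length, the levels were 291 for Mt1, 11.5 for Slc30a1, 4.27 for Mt2, 3.86 for Mtf1, 3.13 for Slc39a10, 1.91 for Slc39a14 and 1.51 for Slc39a8. Of the neighbours in this order, Mt1 and Slc30a1 alone had ranges that did not overlap, with Mt1 higher in 6 of 6 libraries. Mt2 was above Mtf1 in 2 of 6 libraries, and each of the other neighbours kept its order in 5 of 6. Together the 7 genes took 0.0415 to 0.0745% of the counts, the highest share being that of sensitive library 2.

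None of the 7 genes differed between resistant and sensitive libraries in the test over all genes. By edgeR, 0 of the 15474 tested genes (0%) had an adjusted p under 0.05, and 476 (3.08%) had an unadjusted p under 0.05, of which 83 were higher and 393 lower in the resistant group; DESeq2 called 24 of 15448 genes (0.155%), none of them in the zinc lists. No member had an unadjusted p under 0.05. Of the 7, 5 had a positive log2 fold change, beside 50.8% of all tested genes, and the median was 0.26 beside 0.0078 over all genes. Groups did not overlap for 2 of the 7, Mtf1 and Slc39a14, beside 9.02% of all tested genes, or 4.64% when counted with the resistant group higher. Leaving out a library cannot make such groups overlap, so leaving out sensitive library 2 was no further check on them. The intervals of Mt1, Mt2, Slc39a10 and Slc39a14 reach beyond a log2 difference of 1 on at least 1 side and that of Slc39a8 reaches 1.00, so a difference of that size lies within the interval on that side.

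**Figure D4:**
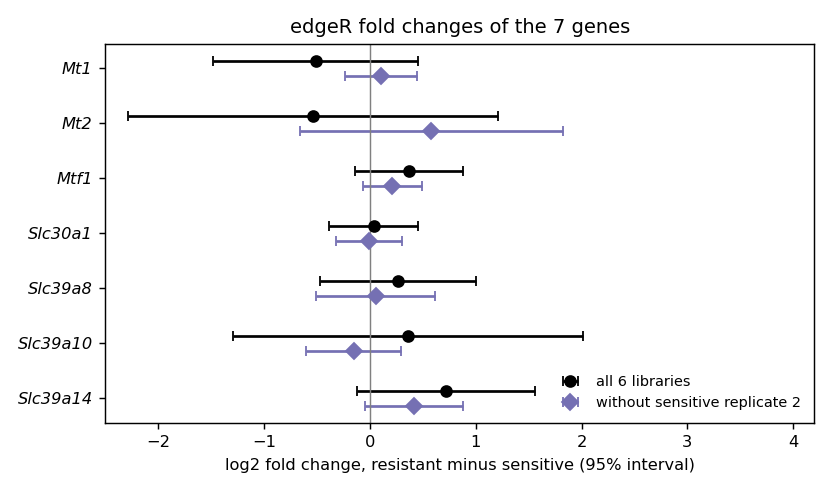
Log2 fold change (resistant over sensitive) with its 95% interval for the 7 genes, with all libraries and without sensitive library 2. Every interval with all libraries includes 0, and the estimates of Mt1 and Mt2 move from -0.51 and -0.53 to 0.10 and 0.58.

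The levels of the 6 other genes were set against Mt1 across the libraries. On the log2 CPM scale Mt1 and Mt2 had a Pearson r of 0.914 over 6 libraries (exact permutation p = 0.00972, adjusted over 6 relations 0.0292; 0.863 without sensitive library 2) and a Spearman rho of 0.829 (exact permutation p = 0.0583, adjusted 0.175). Leaving out the 2 libraries farthest from the median of Mt1, sensitive 2 and resistant 1, r was 0.572, so the relation rests largely on those. Mt1 and Slc39a10 had an r of -0.997 (exact permutation p = 0.00278, adjusted 0.0167) and a rho of -0.943 (exact permutation p = 0.0167, adjusted 0.1). Here r was -0.807 without the 2 farthest libraries and -0.950 without sensitive library 2. Among 9102 genes compared, 0.110% had an r with Mt1 at least as low as that of Slc39a10 and 12.7% at least as high as that of Mt2. These shares were 0.450% and 2.92% without sensitive library 2.

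Slc39a8 had an r with Mt1 of -0.906 (exact permutation p = 0.0153, adjusted 0.0306; rho -0.714, exact permutation p = 0.136, adjusted 0.272), -0.75 without sensitive library 2, and -0.106 without the 2 farthest libraries, on which the relation rests. An r with Mt1 at least as low was held by 21.2% of the 9102 genes compared, and by 6.57% without sensitive library 2. For Mtf1, r was -0.861 (exact permutation p = 0.135, adjusted 0.162; rho -0.03, exact permutation p = 1), and it turned to 0.49 without sensitive library 2. Slc39a14 behaved alike, with -0.876 (exact permutation p = 0.113, adjusted 0.162; rho -0.14, exact permutation p = 0.803, adjusted 1) and 0.23. Slc30a1 had the weakest relation, with an r of -0.401 (exact permutation p = 0.551; rho -0.03, exact permutation p = 1) and -0.03 without sensitive library 2. With all 6 libraries, the share of compared genes with an r at least as low was 26.6% for Mtf1, 25.2% for Slc39a14 and 46.9% for Slc30a1. All relations share the same 6 libraries and their scaling. The sum of 9 neutrophil markers was 3818, 6028 and 139 CPM in the sensitive and 1589, 731 and 112 CPM in the resistant libraries. The highest library was again sensitive 2, but sensitive library 1 was above resistant library 1 for these markers and below it for Mt1. None of the 9 markers was at 0 counts in all libraries. Macrophage (36399 CPM) and pancreatic acinar markers (94.4 CPM) also had their highest sums in sensitive library 2. The LSEC, pan-endothelial, hepatocyte and stellate cell markers had theirs in other libraries. The part of any of these cell types in the level of Mt1 was not tested.

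The departure of sensitive library 2 ran along gene length, and the 7 genes followed it only in part. Its log2 level minus the mean of the other 5 libraries had a median of 0.84 over 279 genes with under 1 kb of exonic bases and of 0.67 over 1375 genes with 1 to 2 kb, and went down through the classes to -0.57 over 4057 genes with over 6 kb. Mt2, with 588 bases, was at 1.85, and Mt1, with 1246 bases, at 1.33, both above the median of their class. Slc30a1, of 5244 bases, was at -0.10. Among the long genes Mtf1 was at -0.63 and Slc39a8 at -0.74, near their class, while Slc39a14 was at -1.40 and Slc39a10 at -3.06. Of all tested genes, 3.83% were lower on this measure than Slc39a10 and 14.5% lower than Slc39a14. The part of this length trend in the differences between the groups was not tested.

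**Figure D5:**
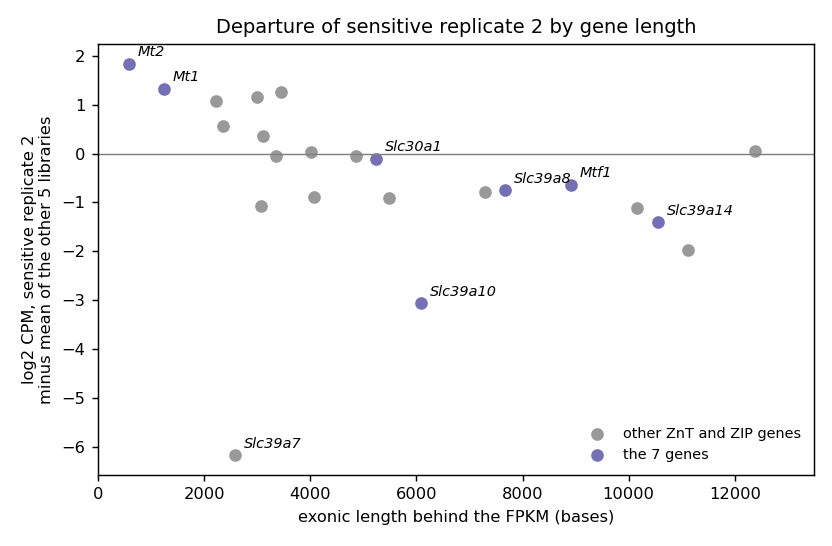
Log2 difference between sensitive library 2 and the mean of the other 5 libraries (vertical axis) against the exonic length of the gene (horizontal axis, bases) for the 23 tested zinc genes, with the 7 genes in purple and the other ZnT and ZIP genes in grey. Mt2 and Mt1 lie at the short, high end (1.85 and 1.33), and Slc39a10 (-3.06) lies below the other long genes. The place of Slc39a7, with 0 counts in that library, is set by the prior count of 2.

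The other metallothioneins were at or near 0. Mt4, known from stratified epithelium, had 0 counts in all libraries, which allows a level of up to 0.170 CPM, and Mt3, known from brain, had 0 to 9 counts and was not tested. Among the other ZnT exporters, Slc30a8 and Slc30a10 had 0 counts throughout, and Slc30a2 and Slc30a3 had at most 3. The 5 others were tested, of which 4 had a positive and 1 a negative log2 fold change. Slc30a9 and Slc30a5, which serves the early secretory pathway, were the highest of them by mean CPM, at 88.4 and 74.3, with log2 fold changes of 0.04 (95% interval -0.36 to 0.45) and 0.35 (-0.22 to 0.92).

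All 11 other ZIP importers were tested, and 8 had a positive and 3 a negative log2 fold change. Slc39a1, an importer of the plasma membrane, was the highest at 228 CPM on average, with a log2 fold change of -0.15 (95% interval -0.72 to 0.43). The largest positive value was that of Slc39a6, at 0.50 (95% interval -0.09 to 1.10), whose resistant libraries were all above the sensitive ones, and the largest negative value was that of Slc39a2, at -0.40 (-1.96 to 1.17), from 15 to 51 counts. Slc39a7, the importer of the secretory pathway that releases zinc from it, is named after its values were seen. It had 0 counts in sensitive library 2 and 109 to 236 in the others, and 80.7% of its exonic bases are shared with the transcript Gm20427, which held 0 to 9 counts.

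Over the 29 zinc genes, 23 were tested, and 17 had a positive and 6 a negative log2 fold change, beside 50.8% positive over all tested genes, with a median of 0.12. By edgeR 0 of 23 had an adjusted and 0 an unadjusted p under 0.05, and by DESeq2 the counts were 0 and 0 as well. On TMM-scaled CPM the groups did not overlap for 4 of the 23, all with the resistant libraries higher, beside 9.02% of all tested genes and 4.64% with the resistant libraries higher. They were Mtf1, Slc39a14, Slc39a6 and Slc39a13, the last named after its values were seen. On CPM of total counts, a scaling compared after seeing the data, 6 of the 23 did not overlap, with Slc30a5 and Slc30a6 added, beside 8.39% of all tested genes. Without sensitive library 2, 16 were positive and 7 negative with a median of 0.10, beside -0.0037 over all genes. Of the 23 genes, 11 were lowest and 6 highest in that library on TMM-scaled CPM, beside 40.7% and 33.3% of all tested genes. On CPM of total counts 16 were lowest and 5 highest, beside 47.7% and 26.0%.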

How the data were processed

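RNA of 6 libraries was sequenced. The authors aligned the reads with HISAT2 2.0.5 and deposited raw counts per gene from featureCounts 1.5.0-p3. The deposited FPKM values, also made by the authors, divide the counts by 1 length per gene. The submitters' processing notes name build mm9, whereas the gene identifiers and FPKM lengths matched GENCODE M21 (GRCm38) for 97.7% of 12126 genes, whose coordinates are used here. The labels name rRNA depletion, the study's methods also poly(A) selection. A table of the authors' own comparison (fold changes and p-values) was not used.

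Counts were tested with edgeR 4.0.16 (R 4.3.3): filterByExpr, TMM factors and the robust quasi-likelihood test without covariates, two-sided, with Benjamini-Hochberg adjustment over 15474 genes at 0.05. Levels are CPM of total counts. Permutation tests, overlaps and correlations used TMM CPM, on the log2 scale with a prior count of 2 where log2 is named. The alternatives were DESeq2 1.42.0, limma 3.58.1, other scalings and filters, a replicate block and leaving out each library. Named genes were the 7 members, of the other metallothionein, ZnT and ZIP genes the 3 with the highest mean CPM and the 2 farthest from 0 in log2 fold change, and the 5 genes most correlated with Mt1 and Mt2. Members and lists were chosen with earlier results of these data known. Counts from reads without molecular identifiers give limits that cover counting error only.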

Additional observations from a re-analysis of the deposited data

How the results depend on the processing

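Of 98 values of the 7 genes recomputed under the alternatives, 93 kept their direction and their side of the threshold. The 5 that reversed all came from leaving out a library: the log2 fold change ranged over these fits from -0.75 to 0.10 for Mt1, from -0.95 to 0.58 for Mt2, from -0.0079 to 0.12 for Slc30a1 and from -0.15 to 0.80 for Slc39a10. The reversals came without sensitive library 2, and for Slc30a1 also without sensitive library 3. The lowest adjusted p of a member under any alternative was 0.619 (Slc39a14, edgeR, no filter on low counts). The number of genes called was 0 by edgeR, 24 by DESeq2 and 2 with no filter on low counts. At an unadjusted p under 0.05 there were 476 genes, against 732 by DESeq2, 2036 with no filter and 167 to 1056 when 1 library was left out; the highest of these was without sensitive library 3 and the lowest without resistant library 3, while leaving out resistant library 2 gave 245. The cause was not tested. Scaling by library totals moved the median log2 fold change of all genes from 0.0078 to 0.06 and turned no member. The deviations of same-numbered libraries of both groups had correlations of -0.00093, 0.034 and 0.19 for replicates 1, 2 and 3. Differently numbered libraries were not compared in this way, so these values do not settle whether the numbers mark pairs. With a replicate block 0 genes were called, 467 had an unadjusted p under 0.05, and the median of the zinc genes was 0.23. The depth limits Mt2 most, which rests on 20 to 99 counts.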

Other observations

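The genes most like the mean of Mt1 and Mt2 over the 6 libraries, among 9101 genes with a mean of at least 10 CPM, were Maf1 (r = 0.998), a repressor of RNA polymerase III, and Ltbr, Ppp2r3d, Jund and Mri1 (r = 0.997 each). Ltbr is the lymphotoxin beta receptor, Jund a subunit of the transcription factor AP-1, and Mri1 an enzyme of methionine salvage. Jund was at 79.0, 170 and 59.2 CPM in the sensitive and at 103, 70.4 and 78.7 CPM in the resistant libraries, again with sensitive library 2 highest and sensitive library 3 lowest. Without sensitive library 2 their r was 0.982 to 0.994. An r over 0.9 was held by 10.2% of the compared genes, and all of them share the same libraries and scaling.

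Lists of related genes also held no gene with an adjusted p under 0.05 in edgeR. Of 8 tested copper handling genes, 1 had a positive and 7 a negative log2 fold change, with a median of -0.23. Of 8 genes of divalent iron and manganese transport, 6 were positive and 2 negative, with a median of 0.48. An unadjusted p under 0.05 was held by 1 of the 8, beside 3.08% of all tested genes. It was the phagosomal metal transporter Slc11a1, at 0.61 (SE 0.25). Among 8 STAT3-responsive genes 7 were negative and 1 positive, with a median of -1.90. Of these, 3 had an unadjusted p under 0.05, beside 3.08% of all tested genes. They were the protease inhibitor gene Serpina3n at -2.46 (SE 0.29), the haptoglobin gene Hp at -2.64 (SE 1.01) and Steap4 at -2.06 (SE 0.69). The summed level of the list was 863 to 4173 CPM in the sensitive libraries, highest in sensitive library 2, and 360.2 to 1204 CPM in the resistant ones. The neutrophil markers were lower beside it, with 9 of 9 negative and a median of -2.19, and their part in these values was not tested. Of 8 glucocorticoid-responsive genes 3 were positive and 5 negative, with a median of -0.06, and of 8 NRF2-responsive genes 7 were positive and 1 negative, with a median of 0.32. Without sensitive library 2, a comparison added after seeing the data, the positive and negative counts were 3 and 5 for copper handling (median -0.12), 7 and 1 for iron and manganese (0.22), 0 and 8 for STAT3 (-1.005), 1 and 7 for glucocorticoid (-0.16) and 6 and 2 for NRF2 (0.23), with 1 and 8 for the neutrophil markers (-1.43). The genes named from these lists were chosen after their values were seen.

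Other cell type markers were measured in the same libraries. Summed over 11 pan-endothelial markers the level was 165 to 399 CPM in the sensitive and 42.1 to 327 CPM in the resistant libraries. Resistant libraries 1, 2 and 3 were at 318, 42.1 and 327 CPM. All 11 markers had a negative log2 fold change, with a median of -1.20, though that of Cdh5 was -0.0011 and that of Robo4 -0.09. An unadjusted p under 0.05 in edgeR was held by 5 of them, beside 3.08% of all tested genes. Again without sensitive library 2, all 11 were negative with a median of -1.19. In that fit 4 of them had an unadjusted p under 0.05, beside 632 of 15965 tested genes. The part of these markers in the values of the zinc genes was not tested. For 10 stellate cell markers the summed level was 81.4 to 152 CPM and 87.3 to 338 CPM, and for 10 pancreatic acinar markers 0.195 to 94.4 CPM and 0 to 7.82 CPM.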
